A study of Mus musculus with 12 samples.

Results

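Lyve1, Prox1, Flt4, Ackr4, Reln, Mmrn1 and Stab2 are genes by which the endothelial cells of lymphatic vessels and lymph node sinuses are commonly told from other cells. These 7 genes were picked by name, with earlier results of these data known, from the 55487 genes of a bulk RNA-seq count table of mouse lymph nodes. All 7 passed the filter on low counts, which kept 17301 genes for testing. None of the 7 passed the test in any of 7 comparisons, while 6 of them were 1.94- to 2.62-fold higher in replicate 3 than in replicate 1 of a single group, T NDE. Those libraries had the highest and lowest summed level of the members, so the range describes the spread and was not tested.

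The study crossed a tumour with the pain-sensing innervation of the lymph node, in 4 groups of 3 libraries. T NDE mice had been given B16F10 cells, a mouse melanoma line, in the tongue, and had the nociceptive nerves of the tumour-draining lymph node inhibited. NT NDE mice had the same nerves inhibited and no B16F10 cells. T NC mice had B16F10 cells and uninhibited nerves, and NT NC mice had neither. The sources used here do not state the strain, sex or age of the mice, the time of collection or the means of inhibition. Each group's 3 libraries are labelled independent biological repetitions, with no word on how many mice went into a library, so p-values measure only the spread between these libraries.

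Lymph enters a node through afferent vessels, runs through the subcapsular, cortical and medullary sinuses, and leaves through efferent vessels, and all of these spaces are lined by lymphatic endothelial cells. The transcription factor Prox1 gives and maintains lymphatic identity, and the growth factor VEGF-C, acting through the receptor encoded by Flt4, drives lymphatic growth. Sinus lining cells also take up hyaluronan and other ligands from lymph and set the chemokine gradients along which immune cells enter the node.

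Promoter sequences are shown for Flt4, Mmrn1 and Stab2, whose pairs had the highest Pearson r of all pairs of members over the 12 libraries. Of the 7 members, 6 matched a RefSeq promoter (GRCm38.p6, 250 bases before to 50 after the start of the gene in RefSeq), and Lyve1 did not. For Flt4 and Mmrn1 the stretch lies wholly inside the longer span that GENCODE M21 gives the gene, so it is not at the GENCODE start. The stretch of Stab2 covers the GENCODE start. Printed below, 5′ to 3′ on the strand of the gene, are Flt4 at chr11:49609429-49609728 (plus strand), Mmrn1 at chr6:60944067-60944366 (plus strand) and Stab2 at chr10:87007893-87008192 (minus strand). Capitals mark the SOX core ACAAT or the nuclear receptor half-site AGGTCA on either strand.
Flt4: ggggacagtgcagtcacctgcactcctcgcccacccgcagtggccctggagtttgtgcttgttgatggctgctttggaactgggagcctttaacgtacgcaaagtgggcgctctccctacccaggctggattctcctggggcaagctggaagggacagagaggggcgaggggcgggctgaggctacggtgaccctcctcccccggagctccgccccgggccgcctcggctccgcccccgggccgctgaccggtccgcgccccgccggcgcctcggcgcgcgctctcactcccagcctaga
Mmrn1: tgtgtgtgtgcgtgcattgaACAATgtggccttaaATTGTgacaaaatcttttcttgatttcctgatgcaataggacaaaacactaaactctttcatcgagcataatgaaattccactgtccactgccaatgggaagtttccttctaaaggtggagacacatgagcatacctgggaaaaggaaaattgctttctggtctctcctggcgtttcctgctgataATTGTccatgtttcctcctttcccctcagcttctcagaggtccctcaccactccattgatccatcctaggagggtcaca
Stab2: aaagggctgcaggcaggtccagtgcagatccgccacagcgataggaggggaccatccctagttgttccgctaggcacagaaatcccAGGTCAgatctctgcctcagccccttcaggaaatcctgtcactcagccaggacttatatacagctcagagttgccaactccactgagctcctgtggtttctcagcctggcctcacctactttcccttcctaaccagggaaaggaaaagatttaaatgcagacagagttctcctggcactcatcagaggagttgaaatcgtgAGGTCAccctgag
Mmrn1 held 3 matches to ACAAT, and Stab2 held 2 matches to AGGTCA. Flt4 held neither motif, and neither did the promoters of Prox1 (2 starts), Ackr4 and Reln. The ETS core GGAA was counted as well, on both strands, with 2 matches in Flt4, 9 in Mmrn1 and 6 in Stab2. Over all 32851 promoters of this length, 96% held GGAA, 31% held the SOX core and 16.3% held the half-site. All motifs were searched on both strands, and matches of different motifs were allowed to overlap. Neither marked motif was shared by the 3 promoters, and a match describes these letters only.

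Of the 12 libraries, 3 stood apart by transcripts of salivary gland. The 12 salivary genes, among them Bpifa2, summed to 42802 CPM (counts scaled to a common library size with TMM factors) in T NDE replicate 3. The sum was 30756 CPM in replicate 3 of NT NC, 1556 CPM in its replicate 2, and 45.8 to 134 CPM in the other libraries. All 12 genes were detected in T NDE replicate 3 and NT NC replicate 3, and up to 4 were at 0 counts elsewhere. Library totals ran from 16862953 to 24467873 counts. Lymph node identity was checked with Cd3e of T cells, at 91.4 to 122 CPM. Melanocyte genes summed to 8.59 to 11.98 CPM, with Dct, Mlana, Tyrp1 and Slc45a2 each at 0 counts in at least 7 libraries. All 7 melanocyte genes were detected only in T NDE replicate 2 and T NC replicate 3, both of mice given B16F10 cells. Their sums there, 9.93 and 9.86 CPM, lay within the range of the other libraries, in each of which 3 or 4 of the genes were at 0. Whether tumour cells gave these counts was not tested. The nociceptor channel gene Scn10a had 0 counts in all 12 libraries, which allows up to 3 counts per library.

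By level per exon length, Lyve1 was the highest member and Reln the lowest. Lengths are the union of exons in GENCODE M21 on mm10. Lyve1 averaged 42.1 ± 7.62 RPKM, a count scaled by exon length and library size (SD, n = 12 libraries). Stab2 averaged 10.3 ± 1.93, Mmrn1 5.31 ± 1.17, Flt4 4.58 ± 0.935, Prox1 3.74 ± 0.844, Ackr4 1.77 ± 0.240 and Reln 0.650 ± 0.147 RPKM over the same 12 libraries. Lyve1 stood above Stab2 without overlap, with a lowest library of 25.9 RPKM for Lyve1 and a highest of 13.3 RPKM for Stab2. The neighbours Mmrn1, Flt4 and Prox1 did not separate beyond their spread, with ranges of 2.91 to 7.62, 2.45 to 5.80 and 2.47 to 5.22 RPKM. Within a library, Mmrn1 exceeded Flt4 in 11 of 12 libraries and Flt4 exceeded Prox1 in 11 of 12. The other neighbours in the order kept it in all 12 libraries. In these bulk samples, fewer lymphatic endothelial cells and less RNA per cell cannot be told apart.

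**Figure D1:**
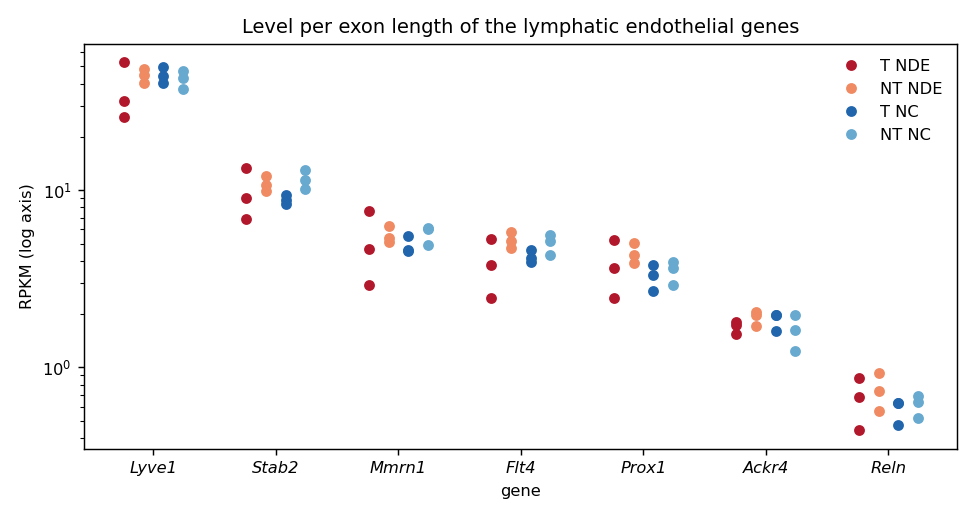
Level per exon length (RPKM, log axis) of each gene, with 1 point per library and the 4 groups side by side as T NDE, NT NDE, T NC and NT NC. Lyve1 lies between 25.9 and 52.6 RPKM, Reln between 0.441 and 0.926 RPKM, and Mmrn1, Flt4 and Prox1 overlap.

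The hyaluronan receptors Lyve1 and Stab2 gave the most counts. Lyve1, the lymphatic vessel hyaluronan receptor, which some macrophages also express, lies at chr7:110850607-110863239 on mm10, on the minus strand. It had 75.6, 93.1 and 154 CPM in T NDE, 117, 130 and 141 CPM in NT NDE, 144, 118 and 129 CPM in T NC, and 138, 126 and 109 CPM in NT NC, in the order of replicates 1 to 3. T NDE replicates 1 and 2 were its lowest libraries and T NDE replicate 3 its highest, so the T NDE group spanned the other 3 groups. Stab2, a scavenger receptor for hyaluronan that sinusoidal endothelium carries, lies at chr10:86841198-87008025 on the minus strand and shares 141 exon bases with the antisense gene Gm16268. It had 60.0, 79.0 and 117 CPM in T NDE, 94.0, 106 and 87.0 CPM in NT NDE, 73.4, 82.6 and 77.1 CPM in T NC, and 114, 89.4 and 99.7 CPM in NT NC. Every T NC library lay under every NT NC library.

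Prox1 encodes the homeodomain transcription factor of lymphatic identity, at chr1:190118035-190170714 on the minus strand, sharing 133 exon bases with the antisense gene Prox1os. It had 20.8, 30.6 and 43.8 CPM in T NDE, 36.3, 42.3 and 32.5 CPM in NT NDE, 22.6, 31.6 and 27.7 CPM in T NC, and 30.7, 24.5 and 32.8 CPM in NT NC. Flt4 encodes VEGFR3, the receptor tyrosine kinase for VEGF-C and VEGF-D, at chr11:49609263-49652739 on the plus strand. It had 20.2, 31.1 and 43.5 CPM in T NDE, 38.9, 47.8 and 42.7 CPM in NT NDE, 38.0, 34.1 and 32.4 CPM in T NC, and 46.2, 35.7 and 42.3 CPM in NT NC. For both genes the low end was T NDE replicate 1, and the groups overlapped in each of the 4 comparisons of 2 groups made here. T NC and NT NDE, which differ in both tumour and nerve state and were not compared, did not overlap for either gene. The same held for Stab2, at most 82.6 CPM in T NC and at least 87.0 CPM in NT NDE. The share of all genes separated between T NC and NT NDE was not taken, so this is a description. T NDE replicates 1 and 2 were the lowest pair for Flt4, and T NC replicate 1 was next to T NDE replicate 1 for Prox1.

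Ackr4 encodes an atypical chemokine receptor that removes CCL19, CCL21 and CCL25 and that in mouse nodes marks the ceiling of the subcapsular sinus. It lies at chr9:104084157-104126933 on the minus strand and shares 479 exon bases with Acad11 on the other strand. Ackr4 had 8.26, 9.68 and 9.30 CPM in T NDE, 11.04, 9.16 and 10.6 CPM in NT NDE, 10.7, 10.6 and 8.67 CPM in T NC, and 8.78, 6.65 and 10.6 CPM in NT NC. Its lowest library was NT NC replicate 2, unlike the other 6 members, and its groups overlapped throughout. The sources used here do not state whether counting used strand, so reads of Ackr4, Prox1, Reln and Stab2 cannot be told from those of the overlapping genes in the shared stretches.

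Reln and Mmrn1 encode secreted glycoproteins. Reln, known from neuronal migration and made by lymphatic endothelium as well, lies at chr5:21884454-22344702 on the minus strand and shares 246 exon bases with the antisense gene Gm10475. It had 10.5, 16.2 and 20.8 CPM in T NDE, 13.4, 17.4 and 22.0 CPM in NT NDE, 14.998, 14.9 and 11.3 CPM in T NC, and 16.4, 15.2 and 12.2 CPM in NT NC. Mmrn1 encodes multimerin, a matrix protein that binds coagulation factor V, at chr6:60924976-60989378 on the plus strand. It had 17.1, 27.4 and 44.7 CPM in T NDE, 31.6, 29.9 and 37.0 CPM in NT NDE, 32.2, 27.1 and 26.5 CPM in T NC, and 35.4, 28.7 and 36.0 CPM in NT NC. Mmrn1 had the widest span of the members, 2.62-fold between T NDE replicates 3 and 1.

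**Figure D2:**
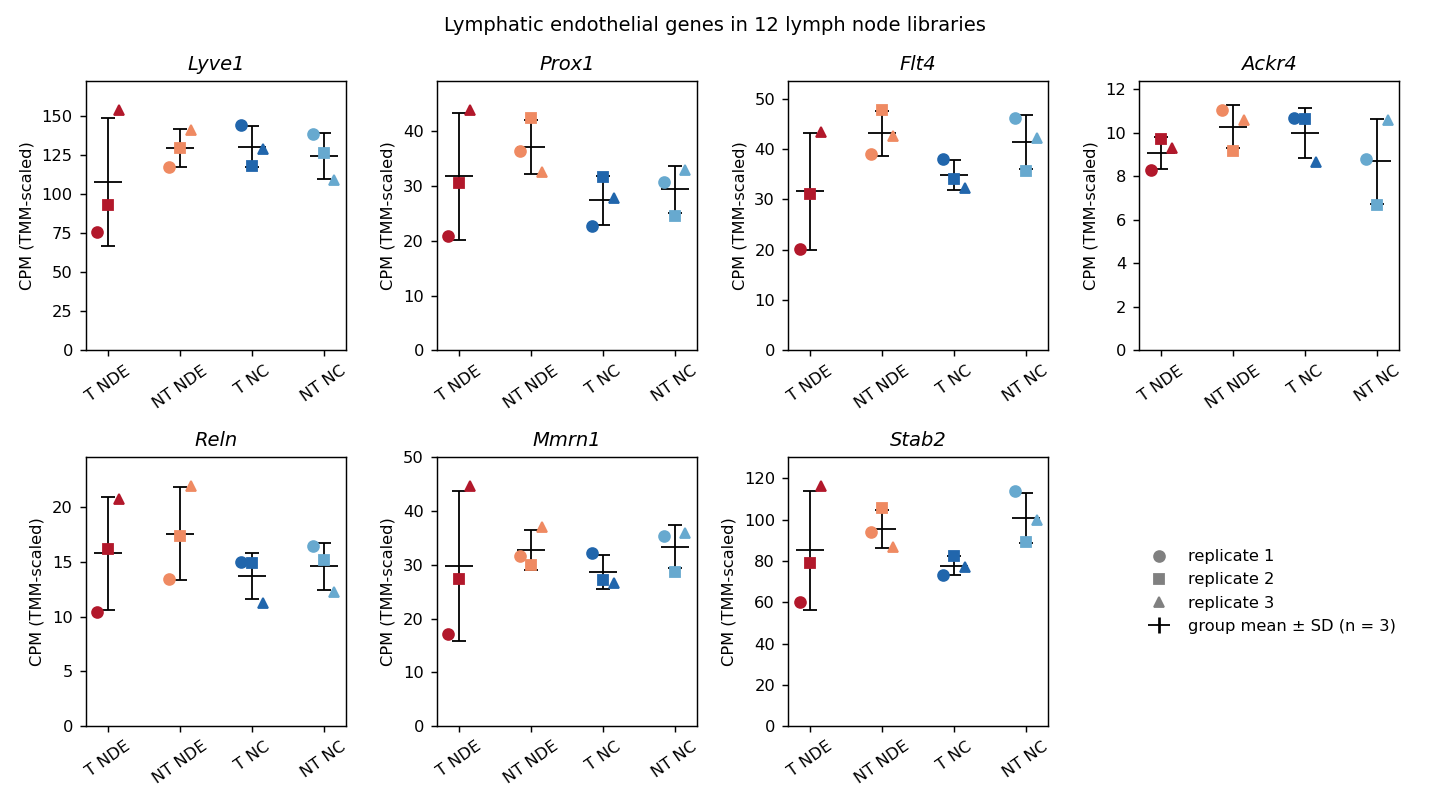
Level of each gene (CPM with TMM scaling, axes from 0) in the 12 libraries, by group from T NDE at the left to NT NC at the right, with replicate shown by symbol and the group mean ± SD (n = 3) as bars. T NDE has the longest bars for every gene except Ackr4, with replicate 1 lowest and replicate 3 highest.

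The widest differences lay inside the T NDE group. The 7 members summed to 212, 287 and 432 CPM in T NDE replicates 1, 2 and 3, to 342, 382 and 373 CPM in NT NDE, to 336, 319 and 312 CPM in T NC, and to 390, 326 and 342 CPM in NT NC. The coefficient of variation of this sum was 36.0% in T NDE, 5.64% in NT NDE, 3.83% in T NC and 9.36% in NT NC. T NDE replicate 1 was the lowest of 12 libraries for 6 of the 7 members, and T NDE replicate 3 the highest for Lyve1, Prox1, Mmrn1 and Stab2. As a share of all counts, the members took 0.0213% in T NDE replicate 1 (95% Wilson interval 0.0206% to 0.0220%) and 0.0421% in T NDE replicate 3 (0.0412% to 0.0430%), intervals that cover counting error only.

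T NDE replicate 3 exceeded T NDE replicate 1 by 2.03-fold for Lyve1, 2.11-fold for Prox1, 2.16-fold for Flt4, 1.98-fold for Reln, 2.62-fold for Mmrn1 and 1.94-fold for Stab2, and by 1.13-fold for Ackr4. At least 1.5-fold was reached by 6 of 7 members and by 11.3% of the 17301 genes tested, whose median ratio was 0.988. Because this pair held the lowest and highest member sums of all libraries, the contrast with all genes is a description and not a test. Lymphatic and sinus lists differed between the same libraries by less than the summed members, whose ratio was 2.04. The ratio was 1.503 for the sum of 15 other lymphatic endothelial markers, 1.56 for subcapsular sinus ceiling and floor genes, 1.59 for medullary and paracortical sinus genes and 1.61 for sinus macrophages. VEGF-C signalling genes had a ratio of 1.55 and fibroblastic reticular cells 1.40. Values were 1.30 for blood endothelium and high endothelial venules, 1.17 for pan-endothelial genes such as Pecam1 and Cdh5, and 1.02 for lymphatic transcription factors. Abundant genes weigh most in such sums, among the transcription factors Maf, which macrophages and T cells also express. A level sum therefore does not describe each gene of a list. Single genes of the other lymphatic markers ran either way, with Itga9 at 73.8 CPM in T NDE replicate 3 and 43.4 CPM in replicate 1, Pdpn at 7.14 and 7.99 CPM, and Ccl21a at 1.39 and 11.6 CPM in the same order. Against the pan-endothelial sum, the members came to 28.6% in T NDE replicate 1 and 49.6% in T NDE replicate 3.

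Markers of tissue around the node were also highest in T NDE replicate 3, but did not follow the members between T NDE replicates 1 and 2. The salivary sum was 666-fold and the adipocyte sum 3.93-fold higher in T NDE replicate 3 than in T NDE replicate 1. The 7 adipocyte genes, led by Fabp4 and Cfd, summed to 21.5, 11.9 and 84.7 CPM in T NDE replicates 1, 2 and 3. Their sum was 11.99 to 28.1 CPM in NT NDE, 17.6 to 43.3 CPM in T NC and 12.8 to 15.4 CPM in NT NC. The salivary sum was 64.3 and 67.9 CPM in T NDE replicates 1 and 2, where the member sum was 212 and 287 CPM. All 7 adipocyte genes were detected in every library except T NDE replicate 2, with 1 at 0 counts, and NT NDE replicate 2, with 2. The member sums of the other salivary libraries, 342 and 326 CPM in replicates 3 and 2 of NT NC, were the lower values of NT NC. The part of this tissue in the T NDE spread was not tested.

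**Figure D3:**
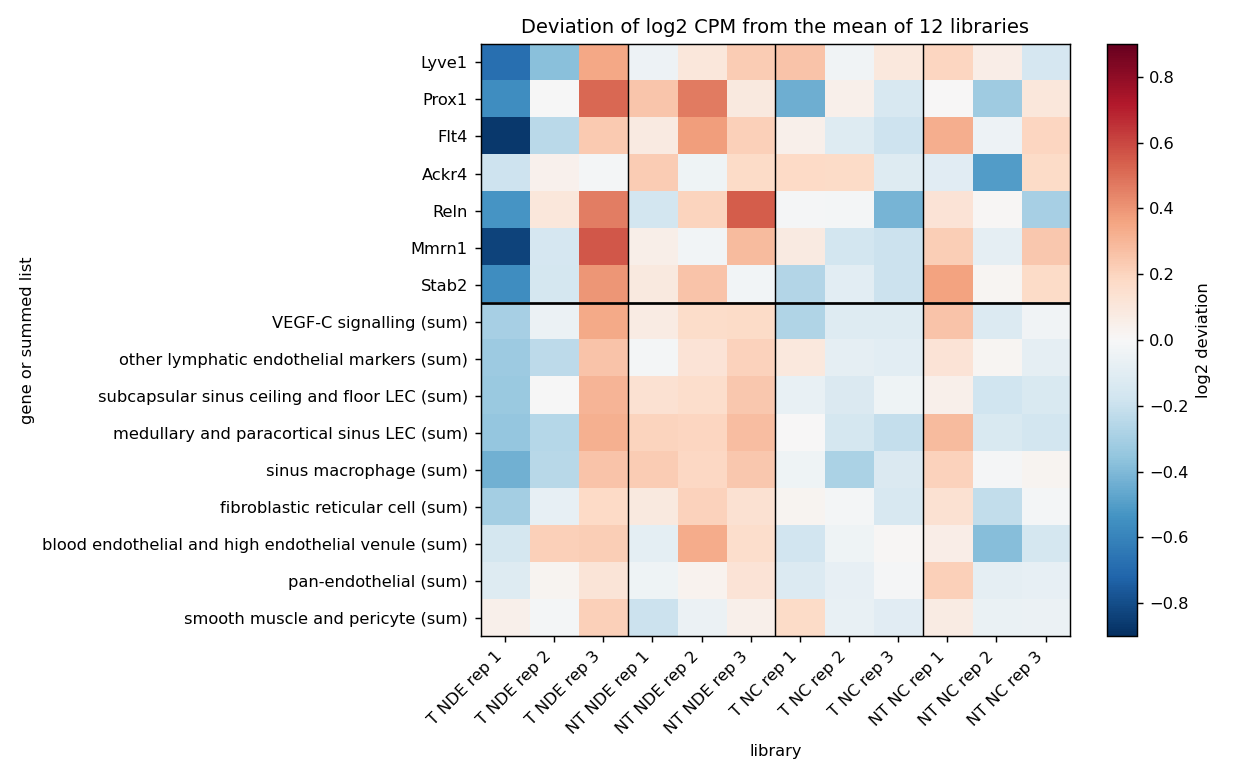
Deviation of log2 CPM from the mean of 12 libraries (colour, log2 units), with the 7 genes above the line and the sums of 9 fixed lists below it, and libraries in columns from T NDE to NT NC. T NDE replicate 1 is below the mean for all 7 genes, with a mean deviation of -0.60, and T NDE replicate 3 averages 0.36.

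The members moved together across libraries to differing degrees. Over 12 libraries the 21 pairs of members had a median Pearson r of 0.64 in log2 CPM, from 0.06 to 0.88. By a permutation test of 99999 resamples with Benjamini-Hochberg adjustment over the 21 pairs, 12 pairs passed by Pearson r and 3 by Spearman rho. Flt4 and Mmrn1 had r = 0.885 (rho = 0.783, adjusted permutation p = 0.0062 and 0.0293) and Flt4 and Stab2 had r = 0.873 (rho = 0.846, adjusted permutation p = 0.0042 and 0.0212). Without the 2 libraries farthest from the median of Flt4, T NDE replicate 1 and NT NDE replicate 2, these were 0.880 and 0.777. Prox1 and Stab2 also passed by both measures, with r = 0.806 (rho = 0.804, adjusted permutation p = 0.0080 and 0.0268). Mmrn1 and Stab2 passed by Pearson r only, with r = 0.815 (rho = 0.678, adjusted permutation p = 0.0080 and 0.0649). The median over all 21 pairs was 0.44 without the 2 farthest libraries of each pair, 0.75 within groups and 0.22 without the T NDE libraries, so much of the common movement rested on T NDE. Ackr4 was the member least like the others, with r = 0.26 against their mean, and Flt4 and Mmrn1 the most alike with r = 0.91 each.

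Among 15080 other genes with at least 1 CPM on average, the 10 whose log2 CPM followed the members' mean most closely had r from 0.929 to 0.957 over the 12 libraries. Among them were Tbc1d2b, Lhfpl2, Pld1 (phospholipase D), Hgf (hepatocyte growth factor), Sbf2, Rap2a, Gprc5c, F8 (coagulation factor VIII, an endothelial product) and App. F8 had 52.2 to 124 CPM over the libraries. Without T NDE replicates 1 and 3, the r of these 10 genes lay between 0.754 for Hgf and 0.882 for Gprc5c. Because they were picked as the highest of many, these values are a description.

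T NC against NT NC asked what the tumour did with the nerves uninhibited. Here 2 members were higher and 5 lower in T NC, and none passed. Stab2 averaged 77.7 ± 4.62 CPM in T NC, against 101 ± 12.2 CPM in NT NC (SD, n = 3 each), a log2 fold change of -0.38 ± 0.21 (SE, edgeR adjusted p = 0.689, 95% interval -0.85 to 0.09). Flt4 averaged 34.8 ± 2.92 CPM in T NC, against 41.4 ± 5.35 CPM in NT NC, and Mmrn1 28.6 ± 3.12 and 33.4 ± 4.03 CPM in the same order, with log2 fold changes of -0.25 ± 0.23 and -0.22 ± 0.29. Ackr4 had 0.20 ± 0.17, Lyve1 0.06 ± 0.24, Reln -0.09 ± 0.24 and Prox1 -0.11 ± 0.25. The median over the members was -0.11, beside -0.01 over all genes tested.

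Stab2 in T NC against NT NC was the only member whose groups did not overlap in the 4 comparisons of 2 groups made here, and among all genes 6.88% were separated with T NC lower and 8.29% with T NC higher. An exact permutation test of 3 against 3 libraries cannot go below p = 0.1. By edgeR, 0% of genes passed an adjusted p of 0.05 in T NC against NT NC, by limma-voom 0% and by DESeq2 0.236%, and 0 members by each tool. An unadjusted p under 0.05 by edgeR was held by 7.8% of genes and 0 members.

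VEGF-C signalling genes had 9 tested members, of which 0 passed in T NC against NT NC and whose median was -0.18. The VEGF receptor genes Kdr and Flt1 had -0.27 ± 0.15 and -0.29 ± 0.13 (edgeR adjusted p = 0.689 and 0.627), and Adamts3, the protease that activates VEGF-C, 0.65 ± 0.23 (adjusted p = 0.554). Pgf of the same list had 0.59 ± 0.28 (adjusted p = 0.638). Vegfc averaged 8.62 ± 0.974 CPM in T NC, against 7.91 ± 0.925 CPM in NT NC. Of 15 other lymphatic markers 0 passed, with a median of -0.07, and Pdpn, the podoplanin gene shared with reticular cells, had 0.41 ± 0.14 (adjusted p = 0.494). Of 7 medullary and paracortical sinus genes 0 passed, with a median of -0.12, and Mrc1, the mannose receptor that macrophages share, had -0.60 ± 0.23 (adjusted p = 0.607). Sinus macrophages line the same spaces, and 0 of their 9 tested genes passed, with a median of -0.23. Siglec1, the sialic acid receptor of subcapsular and medullary macrophages, averaged 164 ± 15.3 CPM in T NC, against 244 ± 11.1 CPM in NT NC (adjusted p = 0.465).

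T NDE against T NC asked what nerve inhibition did in mice with a tumour. The members had 4 positive and 3 negative log2 fold changes and none passed. Lyve1 averaged 107 ± 41.0 CPM in T NDE, against 130 ± 13.3 CPM in T NC (SD, n = 3 each), a log2 fold change of -0.27 ± 0.24 (SE, edgeR adjusted p = 0.921). Prox1 averaged 31.7 ± 11.6 CPM in T NDE, against 27.3 ± 4.51 CPM in T NC, a log2 fold change of 0.23 ± 0.25 (adjusted p = 0.928). Reln had 0.21 ± 0.24, Stab2 0.14 ± 0.21, Mmrn1 0.06 ± 0.29, Flt4 -0.13 ± 0.23 and Ackr4 -0.13 ± 0.17. The sign of the values of Prox1, Reln, Mmrn1 and Stab2 rested on T NDE replicate 3, without which they were -0.09, -0.05, -0.37 and -0.16.

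No member separated T NDE from T NC, beside 4.24% of genes separated with T NDE higher and 4.82% with T NDE lower. At an adjusted p under 0.05, edgeR called 0% of genes, limma-voom 0% and DESeq2 0.255%, with 0 members by each tool, and edgeR had 5.83% of genes and 0 members at an unadjusted p under 0.05. The median of the members was 0.06, beside 0.01 over all genes. Of 9 VEGF-C signalling genes 0 passed, with a median of 0.31, and Flt1 averaged 49.7 ± 5.15 CPM in T NDE, against 34.0 ± 5.56 CPM in T NC (edgeR adjusted p = 0.513). Of 15 other lymphatic markers 0 passed, with a median of -0.07, and Pdpn averaged 7.10 ± 0.912 CPM in T NDE, against 10.8 ± 1.45 CPM in T NC (adjusted p = 0.447). Ccl21a, whose reads may be divided among near-identical copies, reached 11.6 CPM in T NDE replicate 1 and at most 2.72 CPM in the other libraries. Of 10 ceiling and floor genes 0 passed, with a median of 0.06, and the junctional gene Jam2 had 0.61 ± 0.15 (adjusted p = 0.580). Of 7 medullary and paracortical sinus genes 0 passed, with a median of -0.12.

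NT NDE against NT NC asked what nerve inhibition did without a tumour. The members had 5 positive and 2 negative log2 fold changes, and none passed. Prox1 averaged 37.1 ± 4.93 CPM in NT NDE, against 29.3 ± 4.31 CPM in NT NC (SD, n = 3 each), a log2 fold change of 0.34 ± 0.25 (SE, edgeR adjusted p = 0.682). Reln averaged 17.6 ± 4.28 CPM in NT NDE, against 14.6 ± 2.15 CPM in NT NC (0.27 ± 0.24, adjusted p = 0.740). Ackr4 averaged 10.3 ± 0.980 CPM in NT NDE, against 8.67 ± 1.97 CPM in NT NC (0.25 ± 0.17, adjusted p = 0.634). Flt4 had 0.07 ± 0.23, Lyve1 0.06 ± 0.24, Mmrn1 -0.02 ± 0.29 and Stab2 -0.07 ± 0.21. This comparison shares the NT NC libraries with T NC against NT NC.

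All members overlapped between NT NDE and NT NC, beside 9.1% of genes separated with NT NDE higher and 9.8% with NT NDE lower. At an adjusted p under 0.05, edgeR called 0% of genes, limma-voom 0% and DESeq2 0.947%, with 0 members by each tool. At an unadjusted p under 0.05, edgeR had 10.4% of genes and 0 members. The median of the members was 0.07, beside 0.00 over all genes. Of 10 ceiling and floor genes 0 passed, with a median of 0.34, and Coch, a secreted protein of the sinus floor in mouse nodes, averaged 17.4 ± 2.74 CPM in NT NDE, against 9.15 ± 1.48 CPM in NT NC (edgeR adjusted p = 0.101). Bmp2, a growth factor of the same list, averaged 15.1 ± 1.18 CPM in NT NDE, against 9.42 ± 1.14 CPM in NT NC (adjusted p = 0.252). Of 9 lymphatic transcription factors 0 passed, with a median of 0.11, and Maf had 0.35 ± 0.06 (adjusted p = 0.101). Of 9 VEGF-C signalling genes 0 passed, with a median of 0.13, and Pgf had 0.84 ± 0.28 (adjusted p = 0.333).

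T NDE against NT NDE asked what the tumour did with the nerves inhibited. All 7 members had negative log2 fold changes, and none passed. Flt4 averaged 31.6 ± 11.7 CPM in T NDE, against 43.1 ± 4.44 CPM in NT NDE (SD, n = 3 each), a log2 fold change of -0.45 ± 0.23 (SE, edgeR adjusted p = 1.000, 95% interval -0.97 to 0.06). Its unadjusted p was 0.0798 by edgeR, 0.0240 by DESeq2 and 0.0466 by limma-voom. Lyve1 had -0.27 ± 0.24, Prox1 -0.22 ± 0.25, Ackr4 -0.18 ± 0.17, Stab2 -0.17 ± 0.21, Reln -0.16 ± 0.24 and Mmrn1 -0.14 ± 0.29. Without T NDE replicate 1, Prox1, Reln, Mmrn1 and Stab2 had 0.00, 0.07, 0.13 and 0.03, and Flt4 -0.21.

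The median of the members was -0.18, beside 0.00 over all genes. No member separated the groups, beside 4.33% of genes with T NDE higher and 3.99% with T NDE lower. Adjusted p under 0.05 was reached by 0.00578% of genes with edgeR, 0.00578% with limma-voom and 0.111% with DESeq2, with 0 members by each tool, and edgeR had 3.7% of genes and 0 members at an unadjusted p under 0.05. Of 7 medullary and paracortical sinus genes, which include the scavenger receptors Marco and Stab1, 0 passed and 7 were lower in T NDE, with a median of -0.29. Of 15 other lymphatic markers 0 passed, with 3 higher and 12 lower in T NDE and a median of -0.16, and Pdpn had -0.55 ± 0.14. Of 10 ceiling and floor genes 0 passed, with 4 higher and 6 lower in T NDE and a median of -0.28. Bmp2 and Coch of that list had -0.69 ± 0.19 and -0.46 ± 0.17. Of 9 fibroblastic reticular cell genes 0 passed and 9 were lower in T NDE, with a median of -0.20. Of 9 sinus macrophage genes 0 passed, with 1 higher and 8 lower in T NDE and a median of -0.25. A common negative direction was therefore not particular to the members. Siglec1 averaged 201 ± 49.8 CPM in T NDE, against 294 ± 11.04 CPM in NT NDE. The pan-endothelial median was -0.01, with 4 genes higher and 6 lower in T NDE.

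**Figure D4:**
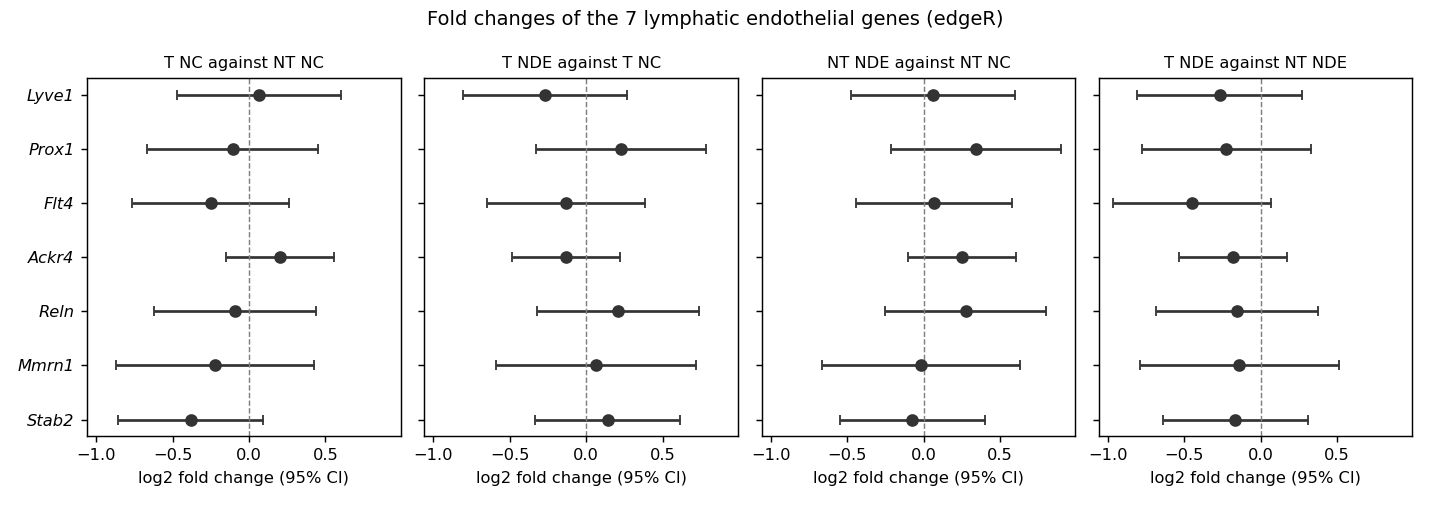
Log2 fold change of each gene with its 95% confidence interval (edgeR, 12 libraries in 1 fit) in 4 comparisons of 2 groups. All intervals include 0, and the intervals as a whole run from -0.97 to 0.90.

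The interaction asked whether the difference between T NDE and T NC was unlike that between NT NDE and NT NC. None of the members passed, with 2 positive and 5 negative values and a median of -0.12, beside 0.01 over all genes. Ackr4 had -0.39 ± 0.23 (SE, edgeR adjusted p = 0.764), Lyve1 -0.33 ± 0.34, Stab2 0.21 ± 0.30 and Flt4 -0.20 ± 0.32. Prox1, Reln and Mmrn1 lay between -0.12 and 0.08. At an adjusted p under 0.05, edgeR called 0% of genes, limma-voom 0% and DESeq2 0.249%, with 0 members by each tool, and edgeR had 7.11% of genes and 0 members at an unadjusted p under 0.05. Of the lymphatic lists, Pdpn had -0.96 ± 0.19 (adjusted p = 0.462), with a log2 fold change of -0.61 in T NDE against T NC and of 0.35 in NT NDE against NT NC. Of 10 ceiling and floor genes 0 passed, with 4 positive and 6 negative values and a median of -0.31. In that list 5 genes had an unadjusted edgeR p under 0.05. The values were -0.85 ± 0.24 for Coch, -0.70 ± 0.21 for Madcam1, -2.03 ± 0.70 for Ccl20 and 0.61 ± 0.22 for Jam2.

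Averaged over mice with and without a tumour, NDE against NC gave log2 fold changes of 0.28 ± 0.18 for Prox1 and 0.24 ± 0.17 for Reln (SE, edgeR adjusted p = 0.680 and 0.724). The other members lay between -0.10 for Lyve1 and 0.06 for Ackr4, and the median of the 7 was 0.03, beside 0.01 over all genes. At an adjusted p under 0.05, edgeR called 0.0983% of genes, limma-voom 0.0289% and DESeq2 0.981%, with 0 members by each tool, and edgeR had 9.2% of genes and 0 members at an unadjusted p under 0.05. Maf rose by 0.33 ± 0.04 (edgeR adjusted p = 0.0190), the only gene of the 15 other lists to pass in any of the 7 comparisons. Maf encodes a basic leucine zipper factor active in lymphatic endothelium and also in macrophages and T cells. It had 139, 126 and 141 CPM in T NDE, 139, 149 and 143 CPM in NT NDE, 108, 114 and 106 CPM in T NC, and 110, 109 and 121 CPM in NT NC. Every NDE library lay above every NC library for Maf, whereas Prox1 overlapped. The share of all genes separated in this way was not taken. Maf was named because it passed, so its separation is a description and adds no support. Leaving out 1 library kept the log2 fold change of Maf between 0.31 and 0.35 but ended its call in 5 of 12 fits, those without NT NDE replicate 1, 2 or 3 or NT NC replicate 1 or 2 (edgeR adjusted p = 0.0619, 0.109, 0.0607, 0.0781 and 0.0901). The call was also lost with the replicate number as a block (adjusted p = 0.0751). Of 9 lymphatic transcription factors, Maf was the 1 that passed, with a median of 0.22 over the list, and Nr2f2, a partner of Prox1 in lymphatic specification, had 0.14 ± 0.08 (adjusted p = 0.593).

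Averaged over both nerve states, T against NT gave 1 positive and 6 negative values, and none of the members passed. Flt4 had -0.35 ± 0.16 (SE, edgeR adjusted p = 0.992) and Stab2 -0.27 ± 0.15 (adjusted p = 0.992), and the remaining values ran from -0.18 for Mmrn1 to 0.01 for Ackr4. The unadjusted p of Flt4 was 0.0571 by edgeR, 0.0130 by DESeq2 and 0.0385 by limma-voom. The median of the members was -0.17, beside 0.00 over all genes. At an adjusted p under 0.05, edgeR called 0% of genes, limma-voom 0% and DESeq2 0.0348%, with 0 members by each tool, and edgeR had 4.5% of genes and 0 members at an unadjusted p under 0.05. Without the 3 salivary libraries, which leaves 1 NT NC library, Stab2 passed at -0.50 ± 0.09 (adjusted p = 0.0470), among 66 genes called in that fit.

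The summed level of the ligands and binding partners of the members had a highest over lowest ratio of 1.16 between libraries, and that of the members 2.04. Abundant genes such as Ccr7 weigh most in such a sum, and single genes of the list varied more. The list of 14 genes, 13 of them tested, summed to 509 to 558 CPM in T NDE, 496 to 532 CPM in NT NDE, 507 to 554 CPM in T NC and 511 to 576 CPM in NT NC, and 0 of its genes passed in any of the 7 comparisons. Ccr7, the receptor for the CCL19 and CCL21 that Ackr4 removes, averaged 196 ± 9.22 CPM in T NDE, 188 ± 10.8 in NT NDE, 218 ± 20.4 in T NC and 210 ± 23.6 in NT NC. Vldlr, a reelin receptor, averaged 9.05 ± 1.35 CPM in T NDE, 10.1 ± 0.708 in NT NDE, 9.505 ± 0.777 in T NC and 9.502 ± 2.25 in NT NC. Ccl19 ran from 0.394 to 45.4 CPM, with its highest value in T NDE replicate 3, and its reads may be divided among near-identical copies. Has1, a hyaluronan synthase, had at most 1 count in any library and was at 0 in 8 of them.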

How the data were processed

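Lymph node RNA of 12 libraries was sequenced from Illumina mRNA libraries. The deposited values are read counts per gene, not normalized, and the authors used HISAT2 2.0 and mm10, per the submitters' processing notes. Which counter, annotation and strand setting produced them is not stated in the sources used. Symbols came from GENCODE M21 by gene ID, and up to 0.0548% of a library's counts had no symbol.

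The analysis used edgeR 4.0.16 in R 4.3.3: TMM factors (0.975 to 1.02), filterByExpr (minimum count 10, minimum total 15), and its robust quasi-likelihood test on group means of all 12 libraries. Benjamini-Hochberg adjustment ran over all 17301 genes tested, with a threshold of 0.05, two-sided. DESeq2 1.42.0, limma-voom (limma 3.58.1), other factors and filters, a replicate block and left-out libraries were alternatives. The code was tested on simulated counts. Genes named from the 15 other lists are those that passed or, where none did, up to 4 with the smallest p. Others (Vegfc, Ccr7, Vldlr, Ccl19, Has1, Nr2f2, Itga9, and genes named as examples of a list or for counts of 0) were chosen after their values were seen. The members and lists were chosen with earlier results of these data known. Likeness used log2(CPM + 0.01). Some genes are not reported here.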

Additional observations from a re-analysis of the deposited data

How the results depend on the processing

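Over 22 alternative settings the 49 member fold changes gave 1057 values, of which 982 kept their direction, 50 turned when 1 library was left out and 25 turned otherwise. Of these values, 1 passed an adjusted p of 0.05. Without the 3 salivary libraries, 1 member, Stab2, was called in T against NT pooled, against 0 in the fit of all libraries. Without the 3 salivary libraries, the log2 fold changes with the opposite sign were Lyve1 -0.079 in T NC against NT NC, Prox1 -0.088, Reln -0.045, Mmrn1 -0.36 and Stab2 -0.16 in T NDE against T NC, Lyve1 -0.090 and Flt4 -0.094 in NT NDE against NT NC, Mmrn1 -0.26 in the interaction and Mmrn1 -0.23 and Stab2 -0.20 in NDE against NC pooled. Without T NDE replicate 3 and NT NC replicate 3, the log2 fold changes with the opposite sign were Lyve1 -0.016 in T NC against NT NC, Prox1 -0.086, Reln -0.043, Mmrn1 -0.36 and Stab2 -0.16 in T NDE against T NC, Lyve1 -0.025 and Mmrn1 0.040 in NT NDE against NT NC, Mmrn1 -0.40 and Stab2 -0.077 in the interaction and Mmrn1 -0.16 and Stab2 -0.12 in NDE against NC pooled. By limma-voom, the log2 fold changes with the opposite sign were Mmrn1 -0.033 in T NDE against T NC, Mmrn1 -0.030 in the interaction and Mmrn1 -0.018 in NDE against NC pooled. Where leaving out 1 library turned a sign, the lowest and highest values over the 12 fits are given here. For T NC against NT NC the range was -0.021 to 0.15 for Lyve1, -0.22 to 0.017 for Prox1 and -0.20 to 0.039 for Reln. For T NDE against T NC the range was -0.090 to 0.45 for Prox1, -0.44 to 0.10 for Flt4, -0.047 to 0.43 for Reln, -0.37 to 0.33 for Mmrn1 and -0.16 to 0.33 for Stab2. For NT NDE against NT NC the range was -0.022 to 0.15 for Lyve1, -0.032 to 0.15 for Flt4, -0.12 to 0.045 for Mmrn1 and -0.16 to 0.023 for Stab2. For T NDE against NT NDE the range was -0.53 to 0.0046 for Prox1, -0.40 to 0.069 for Reln, -0.57 to 0.13 for Mmrn1 and -0.46 to 0.032 for Stab2. For the interaction the range was -0.43 to 0.11 for Prox1, -0.51 to 0.035 for Flt4, -0.32 to 0.16 for Reln, -0.35 to 0.35 for Mmrn1 and -0.088 to 0.41 for Stab2. For NDE against NC pooled the range was -0.19 to 0.083 for Flt4, -0.023 to 0.14 for Ackr4, -0.19 to 0.16 for Mmrn1 and -0.12 to 0.13 for Stab2. For T against NT pooled the range was -0.070 to 0.10 for Ackr4. The cause of these turns was not tested.

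With the replicate number as a block (replicate block, a paired fit), Mmrn1 in NDE against NC pooled had -0.0080, and no member was called. The same replicate number did not in general mark libraries that deviated together. Over 18 pairs of libraries with the same number, the median correlation was 0.02 and 2 pairs were over 0.1. T NDE replicate 3 and NT NC replicate 3, the most salivary libraries, had the highest value, 0.56. T NDE replicate 1 and NT NC replicate 1 had 0.30. Over 36 pairs of unlike number the median was 0.002, with 4 pairs over 0.1. Counts of all genes called moved by over 1.5 times in several fits. DESeq2 called 40 genes in T NC against NT NC, 44 in T NDE against T NC, 138 in NT NDE against NT NC and 17 in T NDE against NT NDE, where edgeR called 0, 0, 0 and 1. For NDE against NC pooled edgeR called 17 genes, DESeq2 130, limma-voom 5, the fit with no filter 41 and the block fit 1, and leaving out 1 library gave 0 to 30. Without the 3 salivary libraries the counts were 7, 1, 33 and 28 in the comparisons of 2 groups, in the same order, 3 for the interaction, 49 for NDE against NC pooled and 66 for T against NT pooled. Maf in NDE against NC pooled, a result and its settings chosen after seeing the data, kept its sign in 21 of 21 settings and its call in 15 of 21. Depth was lowest for Ackr4, with 146 to 260 counts per library.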

Other observations

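Of the ratios between members within a library, 2 are given here, chosen after their values were seen and not tested. The CPM ratio of Prox1 over Flt4 was 1.03, 0.982 and 1.01 in T NDE, against 0.595, 0.928 and 0.857 in T NC, with every T NDE library above every T NC library. Of the 21 ratios between members, 7 did not overlap between T NDE and T NC, 4 between T NC and NT NC, 2 between T NDE and NT NDE and 1 between NT NDE and NT NC. These ratios share the same few genes, so they are not independent. The share of separated ratios among other genes was not taken, so the counts are a description. In NT NDE the ratio of Prox1 over Flt4 was 0.933, 0.885 and 0.762, against 0.664, 0.688 and 0.776 in NT NC, where the groups overlapped. Every T NDE library also lay above every NT NDE library for this ratio. The ratio of Stab2 over Lyve1 was 0.794, 0.848 and 0.758 in T NDE, against 0.509, 0.701 and 0.599 in T NC. In NT NDE it was 0.803, 0.814 and 0.616, against 0.823, 0.710 and 0.915 in NT NC. Prox1 over Flt4 was nearly level across the T NDE libraries, although Prox1 and Flt4 were 2.11- and 2.16-fold higher in replicate 3 than in replicate 1.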
